A study of Homo sapiens with 12 samples.

Results

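EID3 and 6 genes of the SMC5-SMC6 complex were followed in 12 RNA-seq libraries of KURAMOCHI and COV362 cells, which are human ovarian cancer cell lines. The members are the 7 rows named EID3, NSMCE4A, NSMCE1, NSMCE2, NDNL2, SMC5 and SMC6 in the deposited tables, out of 23621 gene rows, and all 7 were among the 14251 genes with an FPKM above 1 in at least 1 library (active genes). EID3 was chosen by its rise in COV362 cells, so its values in that line are given as a description, with no test. The other 6, its paralog NSMCE4A and the remaining subunits, are called partners here and entered by name.

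Each line was treated for 6 hr with DMSO, the vehicle, or with THZ1 at 50 nM or 250 nM, with 2 libraries per condition. THZ1 is a covalent inhibitor of CDK7 and related kinases of the transcription machinery. All cells were labelled as an untransduced control and carried no construct. KURAMOCHI was grown in RPMI and COV362 in DMEM, each with fetal bovine serum, so the medium and the line cannot be told apart. The labels do not say whether the 2 libraries of a condition came from separate cultures, so p-values measure the spread between these libraries, which may be technical. PAX8, a transcription factor of serous ovarian carcinoma, stood at 132 and 140 FPKM in KURAMOCHI DMSO libraries and at 120 and 128 in COV362 DMSO libraries. Of 13 ovarian serous epithelial markers, 11 were above 1 FPKM in both KURAMOCHI DMSO libraries and 12 in both COV362 DMSO libraries. MUC16 and CDH1 were below 1 in KURAMOCHI, and WT1 was below 1 in COV362. The 11 markers of blood, endothelial and fibroblast cells summed to between 13.6 and 25.9 FPKM in the DMSO libraries, and 5 of them were above 1 FPKM in both KURAMOCHI DMSO libraries and 2 in both COV362 DMSO libraries. CDH5, an endothelial cadherin, stood at 8.67 and 7.79 FPKM in KURAMOCHI and at 7.50 and 8.0 in COV362, and the collagen gene COL3A1 stood at 9.43 and 7.74 in KURAMOCHI, while CD3E, DCN and LUM lay at or near the lowest value of the tables. The part of such cells in the results was not tested.

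The SMC5-SMC6 complex belongs, with cohesin and condensin, to the family of ring-shaped ATPases that hold and organize chromosomes, and it is known for its part in DNA repair by homologous recombination and in the restriction of viral DNA. SMC5 and SMC6 form the long arms, NSMCE4A is the kleisin that closes the ring, NSMCE1 is a RING finger protein that pairs with the MAGE protein NDNL2 (now named NSMCE3), and NSMCE2 is a SUMO ligase bound to the SMC5 arm. EID3 is a kleisin paralog of NSMCE4A, known mainly from testis, and is also named for the inhibition of the acetyltransferases p300 and CBP.

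Both EID3 and NDNL2 are retrogenes in the GENCODE annotation. On GRCh37, EID3 occupies chr12:104697517-104698983 on the plus strand as 1 exon of 1467 bp, inside an intron of TXNRD1 on the same strand, and shares 0 exon bases with it. NDNL2 occupies chr15:29557193-29562026 on the minus strand as 1 exon of 4834 bp, inside FAM189A1 on the same strand, again with 0 shared exon bases. Strand cannot separate reads of EID3 or NDNL2 from reads of the introns around them, and the part of such reads was not tested. The other members are multi-exon genes, among them NSMCE4A at chr10:123716606-123734732, NSMCE1 at chr16:27236315-27280093, SMC5 at chr9:72873894-72969789 and SMC6 at chr2:17845079-17981509. The kit marked the strand of the RNA, but the strand setting of the quantification is not given in the sources used here. NSMCE2 shares 141 exon bases with KIAA0196 and SMC6 shares 107 with GEN1, both on the opposite strand, so reads from these bases may be assigned to either gene. NSMCE4A also shares 323 exon bases with a lncRNA gene, and NSMCE1 shares 40 with NSMCE1-DT. Both lie on the opposite strand and have no row of their own.

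Promoter windows of RefSeq on GRCh38.p14 matched 5 of the 7 members, all but EID3 and NSMCE2. The 250 bases before the start are shown for NDNL2 and NSMCE1, the partners with the largest and the smallest fall at 250 nM in both lines on the deposited scale, with motif matches in capitals. They lie at chr15:29269823-29270072 and chr16:27268773-27269022, both on the minus strand, and are written 5′ to 3′ along the gene.
NDNL2: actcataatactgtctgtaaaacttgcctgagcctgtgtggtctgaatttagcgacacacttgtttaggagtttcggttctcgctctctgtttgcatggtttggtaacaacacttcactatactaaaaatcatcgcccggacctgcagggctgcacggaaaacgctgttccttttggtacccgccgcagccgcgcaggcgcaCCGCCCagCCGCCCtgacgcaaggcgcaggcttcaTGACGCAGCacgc
NSMCE1: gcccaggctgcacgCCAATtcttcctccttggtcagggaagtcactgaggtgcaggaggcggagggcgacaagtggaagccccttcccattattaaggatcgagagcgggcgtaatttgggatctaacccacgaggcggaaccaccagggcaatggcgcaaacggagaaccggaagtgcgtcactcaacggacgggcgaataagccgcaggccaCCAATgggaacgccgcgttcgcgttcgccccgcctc
In the NDNL2 window the capitals mark a match to TGACNNNGC, the core of the antioxidant response element, 13 bases before the start, and 2 GC boxes (CCGCCC, the reverse complement of GGGCGG) at 48 and 40 bases. In the NSMCE1 window they mark 2 CCAAT boxes at 236 and 36 bases before the start. Of all 35116 promoter windows, searched on both strands, 10.9% held TGACNNNGC, 42.6% the GC box and 32.0% CCAAT. The other motifs searched were TATAAA (10.7% of windows), the AP-1 site TGANTCA (6.57%), the CRE site TGACGTCA (1.65%), the E-box CACGTG (6.34%) and the heat shock core GAANNTTC (5.78%), none of which lay in either window. The SMC5 window held a TGACNNNGC match at 74 bases and overlapping GC boxes at 91 and 86, the SMC6 window held GC boxes at 131, 39 and 17, and the NSMCE4A window held none of the 8 motifs. GC content was 54.4% for NDNL2, 61.6% for NSMCE1, 62.0% for SMC5, 68.0% for NSMCE4A and 69.6% for SMC6, beside a median of 58.0% over all windows.

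EID3 was the lowest of the 7 members in untreated cells of both lines. In KURAMOCHI, EID3 stood at 1.83 and 1.53 FPKM in DMSO, at 0.966 and 0.608 at 50 nM and at 0.548 and 0.511 at 250 nM. All 4 treated libraries were below both DMSO libraries. In COV362, EID3 stood at 0.787 and 0.645 FPKM in DMSO, at 8.67 and 10.9 at 50 nM and at 4.89 and 4.90 at 250 nM. The 4 treated libraries were far above both DMSO libraries, and the higher dose gave the lower of the treated levels. The means in COV362 were 0.716 ± 0.10 FPKM in DMSO, 9.76 ± 1.55 at 50 nM and 4.89 ± 0.0082 at 250 nM (SD, n = 2), which is 13.6-fold and 6.83-fold the DMSO mean. The untreated level and the treated KURAMOCHI levels were below 1 FPKM, in tables whose lowest value lay between 0.0783 and 0.119 FPKM depending on the library. The depth of the libraries is unknown, so no counting interval can be given for such low values.

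**Figure D1:**
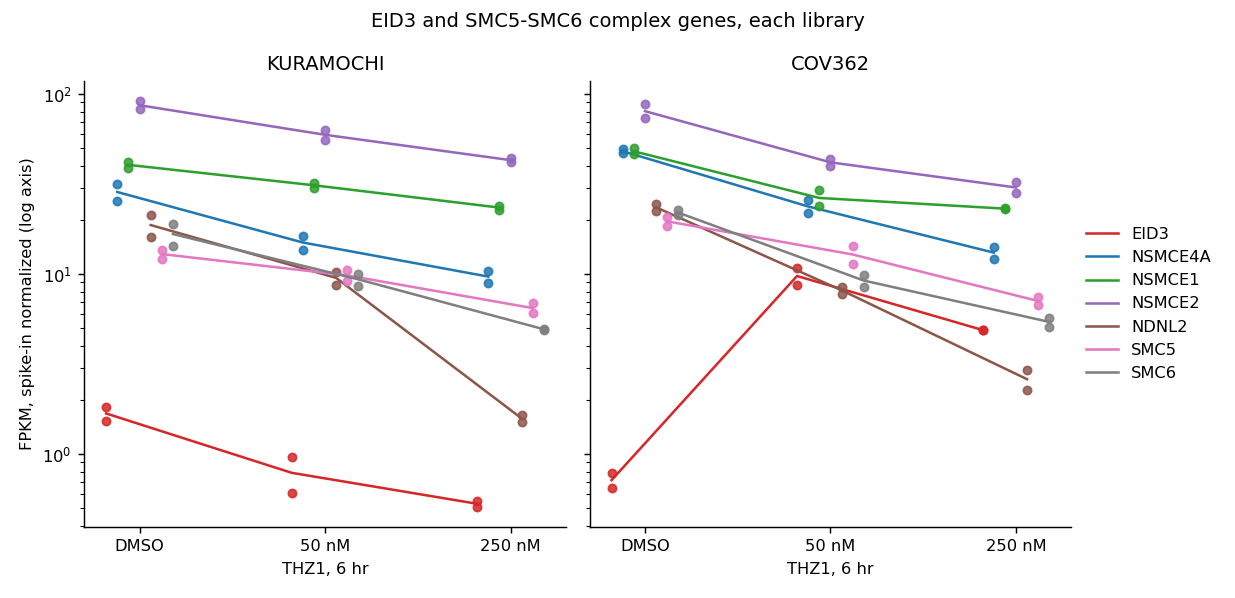
FPKM of the 7 members on a log axis in KURAMOCHI (left) and COV362 (right), by condition; points are single libraries and lines join the means of 2 libraries on the spike-in scale. EID3 climbs from below 1 FPKM to between 4.89 and 10.9 FPKM in treated COV362 cells and drops in KURAMOCHI, while NDNL2 ends at 1.51 to 2.94 FPKM at 250 nM. With library medians equalized, EID3 in KURAMOCHI and the 5 partners other than NDNL2 in both lines have log2 fold changes above 0 at 250 nM, of which only those of NSMCE1 and NSMCE2 in both lines and SMC5 in KURAMOCHI passed the test. The medians of all active genes on that scale are also above 0, at 0.30 in KURAMOCHI and 0.33 in COV362.

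Log2 fold changes were computed as differences of mean log2(FPKM + 1), which understates the change of genes near 1 FPKM, and were tested with limma. Calls required a log2 fold change beyond 0.5 together with an adjusted p under 0.001. On this scale EID3 in COV362 was higher by 2.64 at 50 nM and by 1.78 at 250 nM, and 20 and 30 of the 14251 active genes had a larger value. Of all active genes in COV362, limma called 0.0772% higher at 50 nM, 0.105% at 250 nM and 0.0842% between the doses. EID3 was chosen by this contrast, and nothing is read from its place. Between 50 nM and 250 nM its log2 fold change in COV362 was -0.86, beside a median of -0.41 over all active genes.

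In KURAMOCHI, which did not enter the choice of EID3, the gene fell by 0.81 at 250 nM on the log2 scale (SE 0.12, limma adjusted p = 0.000761), in a comparison where limma called 68.6% of active genes lower and 0.0491% higher. At 50 nM its log2 fold change was -0.59 (SE 0.12) and did not pass the test (adjusted p = 0.00754), where 11.3% were called lower and 0.0842% higher. This share of 11.3%, used below for all counts at 50 nM in KURAMOCHI, stands for 1607 genes, which became 6 to 131 with 1 library left out, 9 with only the 2 groups compared and 3 without a minimum FPKM. The median over all active genes was -0.40 at 50 nM and -1.11 at 250 nM, so EID3 stood 0.30 above the median at 250 nM. The call at 250 nM was lost when either DMSO library was left out (adjusted p = 0.00491 and 0.00203 without replicate 1 and 2) and when either 250 nM library was left out (0.00462 and 0.00542). With each library scaled to the same median FPKM the value at 250 nM was 0.17, and with median-of-ratios scaling it was -0.10, neither of them called. The medians over all active genes on these 2 scales were 0.30 and -0.00088.

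The levels of the partners set the order of the members. NSMCE2, a gene at chr8:126103921-126379362 on the plus strand of GRCh37, was highest in every condition of both lines, with 86.8 ± 6.32 FPKM (SD, n = 2) in KURAMOCHI DMSO and 80.5 ± 10.1 in COV362 DMSO. NSMCE1, at 40.5 ± 2.30 and 48.1 ± 2.67, came next in KURAMOCHI. In COV362 DMSO its libraries overlapped those of NSMCE4A, at 48.2 ± 1.61, and the pair did not differ beyond their spread. NDNL2, SMC6 and SMC5 followed, at 18.7 ± 3.63, 16.7 ± 3.36 and 12.9 ± 1.06 in KURAMOCHI DMSO and at 23.5 ± 1.49, 22.0 ± 1.11 and 19.6 ± 1.64 in COV362 DMSO, and NDNL2 overlapped SMC6 in both lines. At 250 nM NDNL2 had dropped below both SMC genes in both lines, with no overlap. In COV362 EID3 took place 5 in the order at 50 nM, with libraries that overlapped those of SMC6, and place 6 at 250 nM, above NDNL2 with no overlap. FPKM are given per transcript length, which permits this ordering within a line, but the tables of the lines were normalized separately and levels were not tested between them.

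The core arms and the kleisin had lower FPKM after THZ1 in both lines. SMC6 stood at 19.1 and 14.3 FPKM in KURAMOCHI DMSO, at 10.1 and 8.63 at 50 nM and at 4.98 and 4.90 at 250 nM. In COV362 it stood at 21.2 and 22.7, at 8.53 and 9.89, and at 5.74 and 5.11. SMC6 fell by 1.56 on the log2 scale at 250 nM in KURAMOCHI (SE 0.16, limma adjusted p = 0.000155) and by 1.84 in COV362 (SE 0.11, adjusted p = 3.23e-06). SMC5, its partner in the arms, had smaller changes. SMC5 stood at 13.7 and 12.2 FPKM, 10.5 and 9.15, and 6.07 and 6.87 in KURAMOCHI over the 3 conditions. In COV362 SMC5 stood at 18.5 and 20.8, 11.4 and 14.3, and 7.44 and 6.73. It fell by 0.90 (SE 0.13, adjusted p = 0.000671) and by 1.35 (SE 0.13, adjusted p = 3.11e-05) at 250 nM. The KURAMOCHI call of SMC5 was lost with each of the 6 libraries left out (adjusted p between 0.0014 and 0.00712) and with the replicate number as a block (0.00131). NSMCE4A, the kleisin, stood at 31.7 and 25.5 FPKM, 16.4 and 13.6, and 10.4 and 8.97 in KURAMOCHI, and at 47.1 and 49.3, 21.7 and 25.8, and 14.2 and 12.1 in COV362. It fell by 1.47 (SE 0.15, adjusted p = 0.000149) and by 1.80 (SE 0.12, adjusted p = 4.46e-06) at 250 nM. Without the second 250 nM library of KURAMOCHI its adjusted p there was 0.00132. The SMC6 call in KURAMOCHI was lost without the first 250 nM library (0.00147) and without the second (0.00149). The groups of these 3 genes did not overlap between DMSO and either dose in either line. Such overlap was not counted over all active genes. Of these, 9.88% at 50 nM and 1.39% at 250 nM had a log2 fold change above 0 in KURAMOCHI, and 1.94% and 1.75% in COV362.

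Of the 6 partners, NDNL2 had the lowest log2 fold change at 250 nM in both lines on the spike-in scale. NDNL2 stood at 21.3 and 16.2 FPKM in KURAMOCHI DMSO, at 10.3 and 8.73 at 50 nM and at 1.51 and 1.64 at 250 nM. In COV362 it stood at 22.5 and 24.6, at 8.52 and 7.74, and at 2.94 and 2.27. At 250 nM its mean was 8.42% of the DMSO mean in KURAMOCHI and 11.1% in COV362. NDNL2 fell by 2.92 on the log2 scale in KURAMOCHI (SE 0.17, limma adjusted p = 1.85e-05) and by 2.77 in COV362 (SE 0.12, adjusted p = 1.15e-06), and 4.10% and 5.10% of active genes had a lower value. It was the only partner called between 50 nM and 250 nM, where it fell by 2.03 in KURAMOCHI (SE 0.17, adjusted p = 0.000167) and by 1.35 in COV362 (SE 0.12, adjusted p = 0.000154). The KURAMOCHI call between the doses was lost without any 1 of the 4 libraries compared (adjusted p between 0.00104 and 0.00185), and the COV362 call was lost with the replicate number as a block (0.0013).

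NSMCE1, the RING partner of NDNL2, had the smallest change of the 6 partners at 250 nM in both lines on the spike-in scale. NSMCE1 stood at 42.1 and 38.8 FPKM, 32.3 and 30.1, and 22.8 and 24.0 over the 3 conditions in KURAMOCHI. In COV362 it stood at 46.3 and 50.0, 23.8 and 29.2, and 23.0 and 23.2. It fell by 0.76 (SE 0.08, adjusted p = 0.000163) and by 1.03 (SE 0.11, adjusted p = 6.1e-05) at 250 nM, less than the medians of -1.11 and -1.31 over all active genes. The KURAMOCHI call of NSMCE1 was lost without the first DMSO library (adjusted p = 0.00108), the first 250 nM library (0.00214) or the second (0.0015). NSMCE2, the SUMO ligase, stood at 91.3 and 82.3 FPKM, 63.0 and 55.9, and 44.1 and 41.9 in KURAMOCHI, and at 73.4 and 87.6, 39.9 and 43.7, and 32.5 and 28.1 in COV362. It fell by 1.00 (SE 0.09, adjusted p = 7.96e-05) and by 1.38 (SE 0.12, adjusted p = 1.82e-05) at 250 nM. It stood 0.11 above the median of all active genes in KURAMOCHI and at -0.07 from it in COV362.

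Counted together, 6 of 6 partners were called lower at 250 nM in KURAMOCHI, where 68.6% of active genes were, and 6 of 6 in COV362, where 84% were. At 50 nM limma called 0 of 6 in KURAMOCHI, where 11.3% of active genes were called, and all 6 had an unadjusted p under 0.05 and a value below 0, as had 61.0% of active genes. In COV362 it called 5 of 6 at 50 nM, where 70.5% were, and the exception was SMC5 with a log2 fold change of -0.58 (SE 0.13, adjusted p = 0.00365). Without the first or the second COV362 DMSO library fewer partners were called at 50 nM, and fewer of all active genes too. The same held at 250 nM in KURAMOCHI without the first or the second 250 nM library. With 1 library left out, the partner values stayed between -1.49 and -0.43 at 50 nM in COV362. At 250 nM in KURAMOCHI they stayed between -3.11 and -0.71. Between the doses 1 of 6 was called in each line, where 36% of active genes in KURAMOCHI and 24.4% in COV362 were called lower. The share called higher between doses was 0.0421% in KURAMOCHI. The median of the 6 partners was -0.65 and -1.23 at 50 nM and 250 nM in KURAMOCHI and -0.96 and -1.59 in COV362, beside -0.40, -1.11, -0.85 and -1.31 over all active genes.

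**Figure D2:**
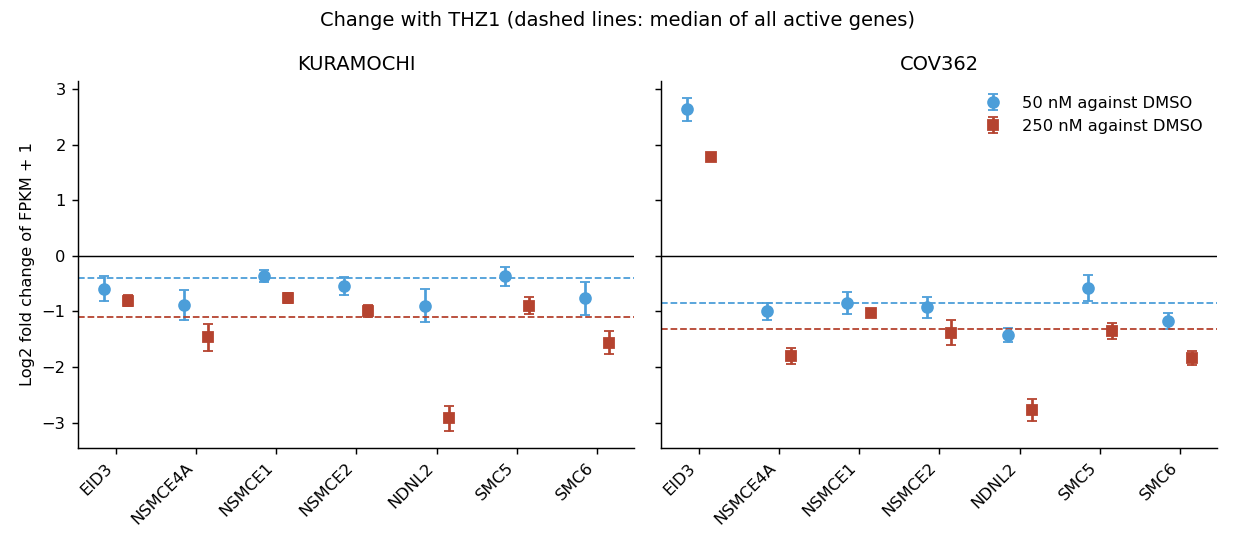
Log2 fold change of FPKM + 1 for each member at 50 nM (circles) and 250 nM (squares) against DMSO in KURAMOCHI (left) and COV362 (right); bars span the 4 differences of single treated and DMSO libraries, and dashed lines mark the medians of all active genes. EID3 in COV362 lies at 2.64 and 1.78, NDNL2 at 250 nM lies at -2.92 and -2.77, and the other partners lie around the medians, on the spike-in scale. Under equal median scaling 5 of the 6 partners have values above 0 at 250 nM in each line, NDNL2 being the exception. On that scale the median of all active genes is 0.30 in KURAMOCHI and 0.33 in COV362, and 4640 and 4577 of 14251 genes lie below 0.

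These directions hold on the spike-in scale of the deposited values, for which the spike-ins were added to RNA normalized by cell count. In such bulk samples, fewer cells that express a gene and less of its RNA in each cell cannot be told apart. Relative to the median of all active genes, NDNL2 stood at -1.82 in KURAMOCHI and -1.46 in COV362 at 250 nM, and SMC6 at -0.45 and -0.53. NSMCE1 stood 0.35 and 0.28 above it. With each library scaled to the same median FPKM, 1 of 6 partners was called lower at 250 nM in KURAMOCHI and 0 in COV362, and with median-of-ratios scaling 1 in each line. At 50 nM in COV362 neither scaling called any of the 6, beside 22 (equal median) and 110 (median-of-ratios) of 14251 active genes called lower. Equal median scaling left the median of all active genes at 0.30 in KURAMOCHI and 0.33 in COV362 at 250 nM. A value above 0 on that scale can therefore lie below the median. Under this scaling NSMCE1 was called higher at 250 nM in both lines with values of 1.16 and 0.99. NSMCE2 was called higher too, at 0.96 and 0.66, and SMC5 was called higher in KURAMOCHI at 0.90. Over all active genes the split of lower and higher calls at 250 nM went from 9774 and 7 to 1664 and 3853 in KURAMOCHI, and from 11971 and 15 to 1613 and 3789 in COV362. With median-of-ratios scaling it was 2708 and 1577 in KURAMOCHI and 2694 and 1221 in COV362. NDNL2 at 250 nM had -1.36 with equal median scaling (adjusted p = 0.000136) and -1.76 with median-of-ratios scaling (adjusted p = 7.85e-05) in KURAMOCHI, both called, beside -2.92 on the spike-in scale. In COV362 it had -0.99 (adjusted p = 0.00123), not called, and -1.37 (adjusted p = 0.000343), called, beside -2.77. Its COV362 call between the doses was lost under both scalings, with -0.71 (adjusted p = 0.00672) and -0.91 (adjusted p = 0.00296). NDNL2 was below 0 on all 3 scales in both lines and EID3 in COV362 above 0 on all 3.

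**Figure D3:**
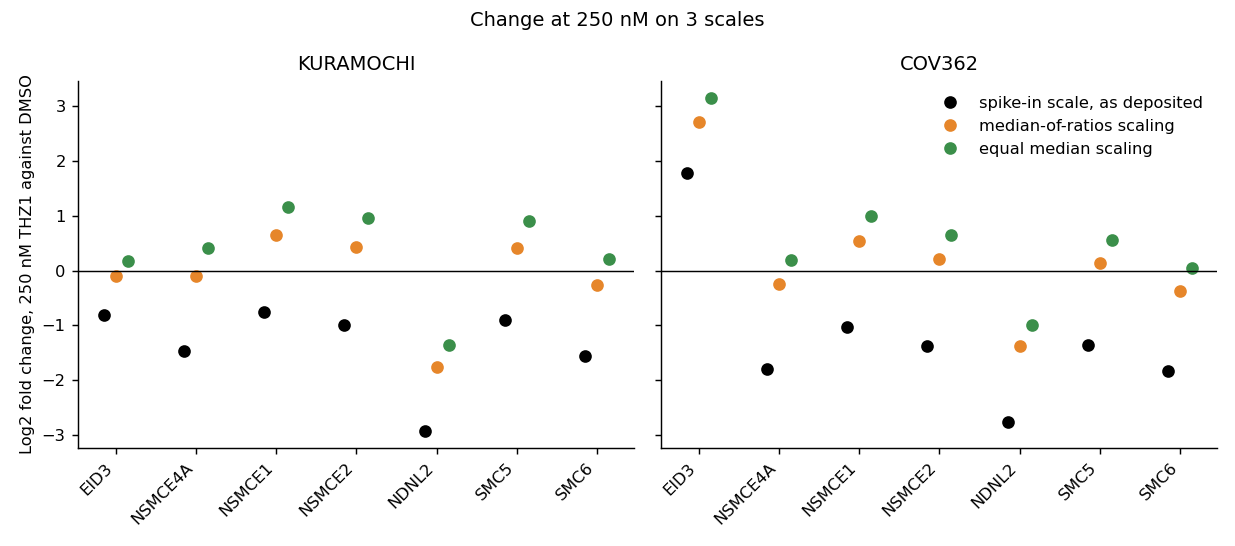
Log2 fold change of each member at 250 nM against DMSO on the spike-in scale (black), with median-of-ratios scaling (orange) and with equal median scaling (green), in KURAMOCHI (left) and COV362 (right); each point is the difference of 2 group means of 2 libraries. NDNL2 stays below 0 and EID3 in COV362 stays above 0 on all 3 scales, while NSMCE1 goes from -0.76 to 1.16 in KURAMOCHI and from -1.03 to 0.99 in COV362.

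Ratios within a library do not depend on a factor common to all its genes. EID3 made up 5.48% and 5.65% of the summed FPKM of the kleisin pair EID3 and NSMCE4A in KURAMOCHI DMSO, 5.58% and 4.27% at 50 nM, and 5.00% and 5.39% at 250 nM. In KURAMOCHI the 50 nM libraries overlapped both other conditions, and the 250 nM libraries lay just below DMSO. In COV362 the share was 1.64% and 1.29% in DMSO, 28.5% and 29.6% at 50 nM and 25.6% and 28.7% at 250 nM. The 2 doses overlapped in COV362, and both lay far above DMSO. EID3 was higher and NSMCE4A lower in the treated libraries of this line, so both parts of the ratio moved. No p is given for ratios, since groups of 2 libraries limit an exact permutation test (two-sided) to a p of 0.333 or more.

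**Figure D4:**
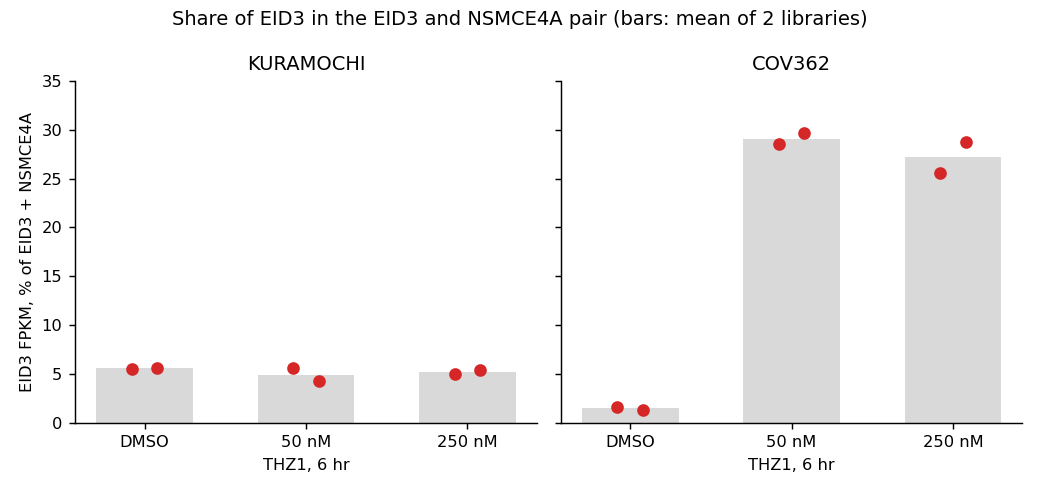
Percent of the summed FPKM of EID3 and NSMCE4A that belongs to EID3, in KURAMOCHI (left) and COV362 (right); bars are means of 2 libraries and points are the libraries. The share lies between 4.27% and 5.65% in all 6 KURAMOCHI libraries, and in COV362 it goes from 1.29% and 1.64% in DMSO to between 25.6% and 29.6% in the treated libraries.

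Other pairs shifted inside the complex. NDNL2 stood at 50.6% and 41.7% of the FPKM of NSMCE1 in KURAMOCHI DMSO, at 32.0% and 29.1% at 50 nM and at 6.63% and 6.84% at 250 nM. In COV362 it stood at 48.6% and 49.1%, at 35.8% and 26.6%, and at 12.8% and 9.78%. The pair began near the same ratio in both lines and the ratio was lower at each dose, with no overlap between the 3 conditions. SMC5 stood at 71.7% and 85% of SMC6 in KURAMOCHI DMSO, at 104.5% and 106% at 50 nM and at 122% and 140% at 250 nM. In COV362 it stood at 87.3% and 91.5%, at 134% and 145%, and at 130% and 132%. SMC5 was thus below SMC6 in the 4 DMSO libraries and above it in the 8 treated libraries.

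TXNRD1 and EID3 went in opposite directions in COV362 on the spike-in scale. TXNRD1, the thioredoxin reductase gene around EID3, stood at 528 and 603 FPKM in COV362 DMSO, at 269 and 298 at 50 nM and at 143 and 137 at 250 nM. It fell by 0.99 (SE 0.10, limma adjusted p = 8.42e-05) and by 2.0 (adjusted p = 1.61e-06), in the same libraries in which EID3 was higher, although with equal median scaling its values were 0.23 and 0.07 and with median-of-ratios scaling 0.04 and -0.39, none of them called. In KURAMOCHI it stood at 230 and 213, at 168 and 153, and at 84.0 and 76.9, and fell by 1.45 at 250 nM (adjusted p = 1.65e-05), a value of 0.52 with equal median scaling and -0.003 with median-of-ratios scaling. The FPKM of EID3 was 0.149% and 0.107% of that of TXNRD1 in COV362 DMSO, 3.22% and 3.65% at 50 nM and 3.41% and 3.57% at 250 nM. In KURAMOCHI it lay between 0.396% and 0.797% in all 6 libraries. FAM189A1, around NDNL2, stood at 9.93 and 9.52 FPKM in KURAMOCHI DMSO and at 3.24 and 3.69 at 250 nM, but between 0.115 and 0.176 in all COV362 libraries, close to the lowest value of that table, while NDNL2 in COV362 went from 22.5 and 24.6 to 2.94 and 2.27. GEN1, a Holliday junction resolvase gene opposite SMC6, fell by 1.84 in KURAMOCHI (adjusted p = 9.94e-05) and by 2.34 in COV362 (adjusted p = 1.67e-06) at 250 nM, and stayed below 0 on all 3 scales. KIAA0196, opposite the start of NSMCE2, fell by 0.97 (adjusted p = 0.000299) and by 1.46 (adjusted p = 1.22e-05), with values of 0.97 and 0.54, both called higher, under equal median scaling.

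**Figure D5:**
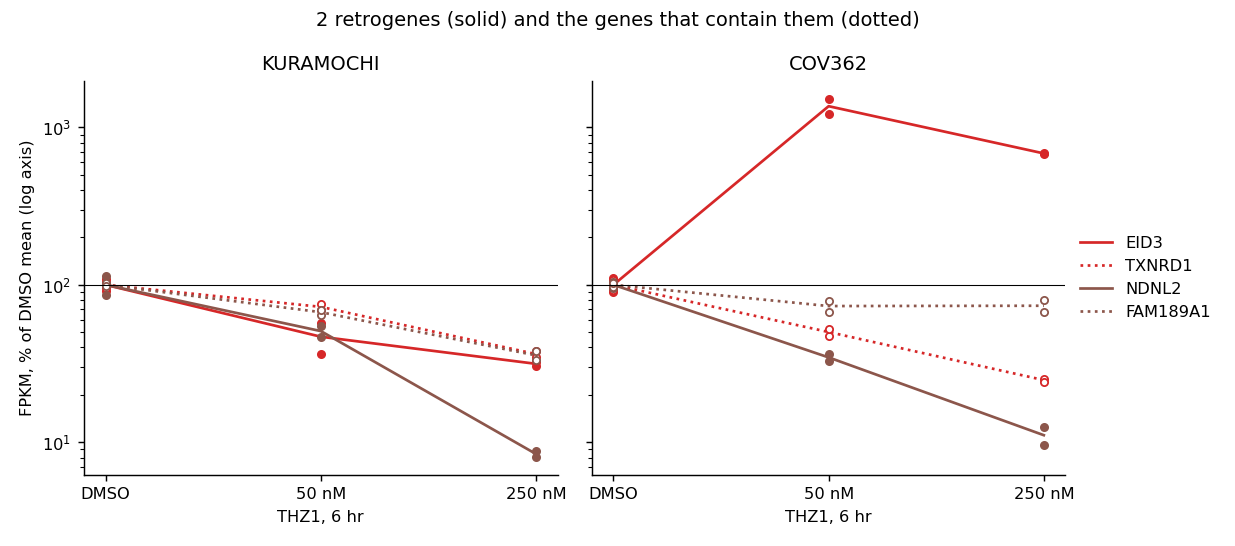
FPKM as a percent of the DMSO mean on a log axis for EID3 and NDNL2 (solid lines, filled points) and for the genes that contain them, TXNRD1 and FAM189A1 (dotted lines, open points), in KURAMOCHI (left) and COV362 (right); points are libraries and lines join means, on the spike-in scale. In COV362 EID3 is at 1363% and 683% of its DMSO mean while TXNRD1 is at 50.1% and 24.8%, values that for TXNRD1 turn to a change near 0 or above under equal median scaling; FAM189A1 in COV362 is near the lowest value of the table.

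The class of single-exon coding genes nested in a same-strand coding gene was taken from the annotation, with 68 such genes in the tables and 19 of them active. Without EID3, 9 of 18 were called lower at 250 nM in KURAMOCHI, where 68.6% of active genes were, and 10 of 18 in COV362, where 84% were, with medians of -0.86 and -1.22 beside -1.11 and -1.31 over all active genes. At 50 nM 3 of 18 were called lower in KURAMOCHI, where 11.3% of active genes were, and 8 of 18 in COV362, where 70.5% were. Equal median scaling gave 5 called lower and 4 higher at 250 nM in KURAMOCHI and 4 and 2 in COV362. Of 14251 active genes it called 1664 lower and 3853 higher in KURAMOCHI and 1613 and 3789 in COV362. At 50 nM in COV362 neither other scaling called any of the 18 lower, and they called 22 and 110 active genes lower. The 1 gene called higher among these 18 was OMP, nested in CAPN5, at 50 nM in COV362 with 0.79 (SE 0.11, limma adjusted p = 0.000324), where 0.0772% of active genes were called higher. Its value was 1.12 with equal median scaling (adjusted p = 0.00345) and 0.99 with median-of-ratios scaling (adjusted p = 0.00348), neither of them called. OMP, OCLM, HUS1B, SUMO4 and RPA4 passed 1 FPKM only in treated libraries, so they were among the active genes because they were high there. Nothing is read from the call of OMP. The counts and medians of the class include these genes, so they are a description and are not compared with all active genes as a result. From the highest value down, EID3 took place 1 of 19 in COV362 at both doses and places 12 and 10 in KURAMOCHI. Since EID3 was chosen by its rise in COV362, nothing is read from its place in that line. NDNL2 took place 17 in COV362 at both doses and places 15 and 18 in KURAMOCHI.

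Across the 12 libraries, with log2 values centred on the mean of each line, the partners followed each other. Pearson's r lay between 0.92 and 0.99 for the 15 pairs of partners. These points share libraries and their scale, and r is a description only. The closest pair was NSMCE4A and SMC6, with r = 0.99, and each was the most like the other. NSMCE2 and NDNL2 were each most like SMC6 (r = 0.99 and 0.97), NSMCE1 was most like NSMCE2 (r = 0.98), and SMC5 was most like NSMCE4A (r = 0.97). Between EID3 and the partners r lay between -0.50 and -0.24 over both lines, between 0.87 and 0.98 in the 6 KURAMOCHI libraries, and between -0.85 and -0.58 in the 6 COV362 libraries. The active genes most like EID3 over the 12 libraries were RPA4 (r = 0.83), TNFRSF10D (r = 0.77), TYRO3P (r = 0.75), HIST1H4D (r = 0.73) and LOC100335030 (r = 0.72). This likeness uses the COV362 values by which EID3 was chosen and is a description only. RPA4, TYRO3P and HIST1H4D passed 1 FPKM only in treated COV362 libraries and LOC100335030 only in the first 50 nM library of KURAMOCHI, and HIST1H4D lay at the lowest value of the table in every KURAMOCHI library. RPA4, a single-exon paralog of a replication protein A subunit that lies inside DIAPH2, stood at 0.282 and 0.314 FPKM in COV362 DMSO, at 0.695 and 1.23 at 50 nM and at 0.853 and 0.715 at 250 nM. TNFRSF10D, a decoy receptor for TRAIL, stood at 2.93 and 3.21, at 6.54 and 8.08, and at 3.62 and 3.11. In KURAMOCHI both stayed below 0.5 FPKM in every library, and of the 5 genes only TNFRSF10D passed 3 FPKM in COV362. With a pseudocount of 0.1 the 5 took places 4, 10, 2, 1 and 5 of the likeness order.

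At 250 nM genes around the complex were mostly called lower on the spike-in scale, as were most active genes. Of its 4 recruiters, 3 were called lower at 250 nM in KURAMOCHI, where 68.6% of active genes were, and 4 in COV362, where 84% were. Their medians were -1.86 and -2.43, beside -1.11 and -1.31 over all active genes. SIMC1, which brings the complex to viral DNA, stood at 16.0 and 12.7 FPKM in KURAMOCHI DMSO and at 2.29 and 2.07 at 250 nM, and fell by 2.26 there (adjusted p = 4e-05) and by 2.84 in COV362 (adjusted p = 1.12e-06). FAM178A (SLF2) had -2.0 and -2.48 and ANKRD32 (SLF1) had -1.72 and -2.38, all called. RAD18, a ubiquitin ligase of stalled forks, had -0.87 in KURAMOCHI (adjusted p = 0.00145) and fell by 1.62 in COV362. Equal median scaling gave 0 recruiters called lower and 1 higher in KURAMOCHI, and 2 lower and 0 higher in COV362. Over all 14251 active genes that scale gave 1664 lower and 3853 higher in KURAMOCHI, and 1613 and 3789 in COV362.

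Genes of the related complexes cohesin and condensin were counted the same way. Of 20 genes of cohesin and its regulators, 17 were called lower at 250 nM in KURAMOCHI and 19 in COV362, beside 68.6% and 84% of all active genes, with medians of -1.66 and -1.83, beside -1.11 and -1.31. The cohesin release factor WAPAL fell by 2.61 and 3.28, CDCA5 (sororin) fell by 2.83 in KURAMOCHI, and MAU2, of the loader, fell by 2.74 in COV362. The germline subunit STAG3, at -0.27 and -0.63, was not called in either line. All 8 condensin genes were called lower at 250 nM in both lines, against the same shares, and their medians of -1.30 and -1.41 lay close to those of all active genes. Their values ran from NCAPH, which fell by 2.24 and 2.49, to NCAPG2, which fell by 0.68 and 1.17. Under equal median scaling 3 cohesin genes were called lower and 6 higher in KURAMOCHI and 4 and 5 in COV362, and for condensin 0 were called lower and 3 higher in each line. The counts for all 14251 active genes on that scale were 1664 lower and 3853 higher in KURAMOCHI, and 1613 and 3789 in COV362.

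Of 18 genes of the SUMO pathway, which NSMCE2 serves as a ligase, 15 were called lower at 250 nM in KURAMOCHI and 17 in COV362, beside 68.6% and 84% of all active genes, with medians of -1.37 and -1.65, beside -1.11 and -1.31. RNF4, a ubiquitin ligase that reads SUMO chains, fell by 2.49 and 3.04. RNF111, of the same kind, fell by 2.67 in KURAMOCHI, and the SUMO ligase PIAS1 fell by 3.06 in COV362. SUMO3 fell by 0.66 and 0.80, and the SUMO protease SENP7 had -0.39 in both lines, not called. On the equal median scale 3 were called lower and 6 higher in KURAMOCHI and 5 and 6 in COV362. Of all 14251 active genes 1664 were called lower and 3853 higher there in KURAMOCHI, and 1613 and 3789 in COV362. Among 9 active type II MAGE genes, the family of NDNL2, 4 were called lower at 250 nM in KURAMOCHI, where 68.6% of active genes were, and 8 in COV362, where 84% were. Their medians were -0.68 and -1.08, beside -1.11 and -1.31. The 9 include NDN and MAGED4, which were below 1 FPKM in every KURAMOCHI library. MAGEF1 moved most, from 50.5 and 46.7 FPKM in KURAMOCHI DMSO to 3.05 and 3.54 at 250 nM, a fall by 3.53 (adjusted p = 6.52e-06), and from 29.6 and 32.1 to 3.11 and 3.84 in COV362, a fall by 2.83 (adjusted p = 9.65e-07). NDN fell by 0.91 in COV362, from 8.32 and 9.86 FPKM to 3.8 and 4.95, and lay at the lowest value of the table in every KURAMOCHI library, so that no change can be given there. Equal median scaling gave 1 MAGE gene called lower and 3 higher in each line, beside 1664 lower and 3853 higher of 14251 active genes in KURAMOCHI and 1613 and 3789 in COV362.

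Of EID1, EID2, EID2B and their binding partners EP300, CREBBP and RB1, all 6 were called lower at 250 nM in KURAMOCHI and 5 in COV362, beside 68.6% and 84% of all active genes, with medians of -2.16 and -2.03, beside -1.11 and -1.31. EID2, an inhibitor of differentiation named like EID3 for its effect on p300, stood at 32.9 and 31.0 FPKM in KURAMOCHI DMSO and at 2.33 and 2.58 at 250 nM, and at 17.9 and 20.7 and at 2.35 and 2.22 in COV362. It fell by 3.25 (adjusted p = 6.86e-06) and by 2.62 (adjusted p = 1.03e-06). EP300 fell by 2.75 and 2.72 and EID1 by 1.63 and 1.43. RB1 fell by 0.63 in KURAMOCHI and had -0.36 in COV362, not called. Under equal median scaling 4 of these genes were called lower and 1 higher in KURAMOCHI and 3 and 1 in COV362. That scaling called 1664 of 14251 active genes lower and 3853 higher in KURAMOCHI, and 1613 and 3789 in COV362. The 3 other EID genes, EID1, EID2 and EID2B, were called lower in COV362 at both doses on the spike-in scale, where 70.5% of active genes were at 50 nM and 84% at 250 nM. At 50 nM in COV362 neither other scaling called any of the 6 genes, and they called 22 and 110 of 14251 active genes lower.

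Of 21 genes of homologous recombination, the repair pathway in which SMC5-SMC6 acts, 18 were called lower at 250 nM in KURAMOCHI and 20 in COV362, beside 68.6% and 84% of all active genes, with medians of -1.80 and -1.84, beside -1.11 and -1.31. PALB2, which brings BRCA2 to DNA breaks, fell by 2.81 and 3.15, XRCC2 fell by 2.60 in KURAMOCHI and BLM by 2.78 in COV362. RAD51B, at -0.42 and -0.48, was not called. With equal median scaling 4 were called lower and 1 higher in KURAMOCHI and 5 and 2 in COV362. The same scaling called 1664 lower and 3853 higher of 14251 active genes in KURAMOCHI, and 1613 and 3789 in COV362. At 50 nM the numbers called lower in KURAMOCHI and COV362 were 0 and 4 of 4 recruiters, 2 and 18 of 20 cohesin genes, 2 and 7 of 8 condensin genes, 1 and 15 of 18 SUMO genes, 1 and 7 of 9 MAGE genes, 3 and 5 of 6 EID genes and partners, and 7 and 20 of 21 recombination genes. The shares of all active genes called lower there were 11.3% and 70.5%. In COV362 at 50 nM both other scalings called 0 genes of these lists, and in KURAMOCHI equal median scaling called 1 lower, a MAGE gene, and median-of-ratios scaling called that number of MAGE genes and 3 recombination genes lower. Of 14251 active genes equal median and median-of-ratios scaling called 22 and 110 lower in COV362 and 84 and 388 in KURAMOCHI. On the spike-in scale limma called 0 genes of these lists higher at either dose in either line. HDAC8, at 0.47 in KURAMOCHI at 50 nM, was the 1 gene above 0 with an unadjusted p under 0.05.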

How the data were processed

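PolyA RNA of 12 libraries was sequenced by the authors with a stranded TruSeq kit (single-end reads, NextSeq 500). ERCC spike-in RNAs had been added to RNA normalized by cell count. HiSat (genome hg19), cuffquant and cuffnorm were used by the authors, who scaled the resulting FPKM to the spike-ins and deposited these normalized FPKM. Each line has its own table of 23713 rows, 92 of them ERCC RNAs. Spike-in normalization sets the level of all genes of a library together, so an error in it would move every member alike. No counts were used, the depth is unknown, and the count test that the study names could not be run.

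Libraries were grouped by line and dose from their labels. Values of the 14251 active genes were transformed to log2 (FPKM + 1) from the deposited FPKM and fitted per line with limma 3.58.1 in R 4.3.3 (lmFit, eBayes with trend, 3 groups of 2 libraries). Tests were two-sided, with Benjamini-Hochberg adjustment over all active genes of a line. The fit was tested on simulated data. Both tables were normalized separately, so lines were not tested against each other.

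The members and lists were chosen with earlier results of these data known. Named genes are the members, genes overlapping them, the most like genes, and genes from those with the largest and smallest change of each list at 250 nM. Alternatives were a pseudocount of 0.1, no minimum FPKM, 2 other scalings, the replicate number as a block, only the 2 groups compared, eBayes without trend, an adjusted p under 0.05, and each library left out in turn. Where 1 library was left in a group, it was assumed to vary like the other groups. Positions come from GENCODE on GRCh37, and sequences from RefSeq. Tables were made with pandas 2.3.3 and figures with matplotlib 3.10.9 in Python 3.11.15.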

Additional observations from a re-analysis of the deposited data

Results flagged for a closer look

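The change of EID3 had opposite signs in the lines at both doses on the spike-in scale. At 50 nM its log2 fold change was -0.59 in KURAMOCHI and 2.64 in COV362, and at 250 nM it was -0.81 and 1.78. All 4 treated KURAMOCHI libraries were below both DMSO libraries, and all 4 treated COV362 libraries were above both. The difference between the lines was not tested, since their tables were normalized separately, and EID3 was chosen by its rise in COV362. With equal median scaling the KURAMOCHI value at 250 nM was 0.17, beside a median of 0.30 over all active genes on that scale.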

How the results depend on the processing

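The directions of EID3 in COV362 against DMSO and of NDNL2 in all 6 comparisons were the same under every alternative run. EID3 in COV362 ranged from 2.50 to 3.59 at 50 nM and from 1.72 to 3.16 at 250 nM. Equal median scaling also moved the medians of all active genes above 0. At 50 nM, at 250 nM and between the doses they were 0.11, 0.30 and 0.25 in KURAMOCHI and 0.13, 0.33 and 0.23 in COV362. With median-of-ratios scaling they lay between -0.00088 and 0.038. Some of the values below lie under these medians, so their sign is not read as a result about the members. With equal median scaling the KURAMOCHI values that turned positive were, at 50 nM NSMCE1 0.32, NSMCE2 0.16 and SMC5 0.28, then at 250 nM EID3 0.17, NSMCE4A 0.41, NSMCE1 1.16, NSMCE2 0.96, SMC5 0.90 and SMC6 0.22, then between the doses EID3 0.37, NSMCE4A 0.62, NSMCE1 0.84, NSMCE2 0.80, SMC5 0.62 and SMC6 0.33. The COV362 values that turned positive with the same scaling were, at 50 nM NSMCE4A 0.19, NSMCE1 0.35, NSMCE2 0.28 and SMC5 0.56, then at 250 nM NSMCE4A 0.19, NSMCE1 0.99, NSMCE2 0.66, SMC5 0.56 and SMC6 0.053, then between the doses NSMCE4A 0.0011, NSMCE1 0.65, NSMCE2 0.38, SMC5 0.00026 and SMC6 0.083. With median-of-ratios scaling the KURAMOCHI values that turned positive were, at 50 nM NSMCE1 0.18, NSMCE2 0.013 and SMC5 0.15, then at 250 nM NSMCE1 0.65, NSMCE2 0.44 and SMC5 0.42, then between the doses EID3 0.16, NSMCE4A 0.26, NSMCE1 0.47, NSMCE2 0.43 and SMC5 0.27. With median-of-ratios scaling the COV362 values that turned positive were, at 50 nM NSMCE4A 0.0049, NSMCE1 0.16, NSMCE2 0.087 and SMC5 0.38, then at 250 nM NSMCE1 0.54, NSMCE2 0.20 and SMC5 0.13, then between the doses NSMCE1 0.38 and NSMCE2 0.12.

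Of the 6 partners, equal median scaling called 1 lower at 250 nM in KURAMOCHI, and 0 in COV362 at 50 nM, at 250 nM and between the doses. Of 14251 active genes it called 1664, 22, 1613 and 720 lower in these comparisons. Median-of-ratios scaling called 1 in KURAMOCHI at 250 nM and, in COV362, 0 at 50 nM, 1 at 250 nM and 0 between the doses. The active genes it called lower numbered 2708, 110, 2694 and 1129 in the same order. At an adjusted p under 0.05, 4 were called at 50 nM in KURAMOCHI, beside 5734 of 14251 active genes. Between the doses 4 were called in each line, beside 8295 active genes in KURAMOCHI and 5909 in COV362. Without a minimum FPKM 0 were called between the doses in KURAMOCHI, beside 1901 of 23621 genes. With a pseudocount of 0.1, 2 were called between the doses in COV362, beside 4212 of 14251 active genes. Leaving out 1 library gave 2 to 5 at 250 nM and 0 to 1 between the doses in KURAMOCHI, and 1 to 6 at 50 nM and 1 to 3 between the doses in COV362. The cause was not tested.

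Same-numbered libraries did not deviate together (correlations between -0.0703 and 0.0282 over active genes), so the numbers were not taken to pair libraries. With the replicate block 3 of 6 partners were called in COV362 at 50 nM, beside 7266 of 14251 active genes, and 0 between the doses. In KURAMOCHI SMC5 lost its call at 250 nM (limma adjusted p = 0.00131). NSMCE4A (0.00113) and NSMCE2 (0.0015) lost theirs in COV362 at 50 nM. The count of all active genes called lower went from 1607 to 989 in KURAMOCHI at 50 nM and from 3474 to 1130 in COV362 between the doses.

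At 50 nM in KURAMOCHI, 1607 active genes were called lower, against 9 with only the 2 groups compared, 3 without a minimum FPKM, 84 and 388 with equal median and median-of-ratios scaling, 5734 at an adjusted p under 0.05, and 6 to 131 with 1 library left out. At 50 nM in COV362 the scalings gave 22 and 110 against 10042, and 4314 to 9929 were called with 1 library left out. Unknown depth limits values of EID3 below 1 FPKM.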

Other observations

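The summed FPKM of the 6 partners was 204 ± 21.0 (SD, n = 2) in KURAMOCHI DMSO, 134 ± 11.6 at 50 nM and 89.1 ± 1.12 at 250 nM. In COV362 it was 242 ± 18.6, 122 ± 11.7 and 81.7 ± 5.81. Of the summed FPKM of all 7 members, EID3 held 0.816% ± 0.0213, 0.577% ± 0.137 and 0.591% ± 0.0211 in KURAMOCHI over the 3 conditions. In COV362 it held 0.298% ± 0.0639, 7.37% ± 0.43 and 5.66% ± 0.389. NSMCE2 held 42.2% ± 1.28 in KURAMOCHI DMSO and 48.0% ± 1.11 at 250 nM, and 33.1% ± 1.63 and 34.9% ± 1.23 in COV362. NDNL2 went from 9.06% ± 0.827 to 1.76% ± 0.126 of the sum in KURAMOCHI and from 9.69% ± 0.126 to 3.0% ± 0.346 in COV362. NSMCE1 went from 19.7% ± 0.915 to 26.2% ± 1.27 and from 19.9% ± 0.411 to 26.8% ± 1.98.

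The active nested single-exon genes other than EID3 with log2 fold changes above 0 at 50 nM are given as a description. In KURAMOCHI they were OMP with 1.52 (limma adjusted p = 0.00892), OCLM with 0.96, HUS1B with 0.61, SUMO4 with 0.46, HIST1H3D with 0.40, TAS2R20 with 0.33, RPA4 with 0.06 and RSC1A1 with 0.05, none of them called. In COV362 they were SUMO4 with 0.90 (adjusted p = 0.00153), OMP with 0.79, RPA4 and OCLM with 0.58 each and HUS1B with 0.45, of which only OMP was called. OMP, OCLM, HUS1B, SUMO4 and RPA4 passed 1 FPKM only in treated libraries and were thus among the active genes because they were high there, so nothing is read from their number. These genes were named after their values were seen.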
